A study of Mus musculus with 10 samples.

Results

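The 28 genes described here encode the enzymes that make cholesterol, the SREBP transcription factors with their escort and retention proteins, and proteins that control sterol uptake, intracellular transport and esterification. They were taken as a fixed list of gene symbols, and all 28 were found among the 36047 genes measured. The cells were quiescent hepatic stellate cells, the retinoid-storing pericytes of the liver, from male C57BL/6 mice. After 5 h of culture, 5 libraries' cells received recombinant mouse Areg (amphiregulin, which activates the EGF receptor) at 500 ng/mL for 4 h and 5 received control treatment, all in starving media. No transgene or deletion is given for either group. The labels number the libraries but do not say that they came from separate animals or cultures, so p-values measure only library-to-library spread and may reflect technical variation alone. Poly-A RNA was sequenced, and levels are given as TMM-scaled CPM (each gene's share of a library's counts) or, to compare genes, as TPM, which also accounts for transcript length.

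Cholesterol is built from acetyl-CoA through mevalonate to farnesyl diphosphate, then to squalene and lanosterol, which a further series of enzymes converts to cholesterol. The genes of this pathway are the classical targets of SREBP-2, and fatty acid synthesis genes those of SREBP-1. SREBP precursors sit in the endoplasmic reticulum bound to Scap. Insig proteins hold that complex there when sterols are plentiful, and otherwise it moves to the Golgi, where proteases release the active factor. Control therefore acts largely on the proteins, which RNA levels do not measure.

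The promoters of Hmgcs1, Insig1 and Srebf1 are printed because Hmgcs1 was the biosynthesis gene that changed, Insig1 is a classical SREBP target and feedback gene, and Srebf1 changed among the regulators. Srebf1 was chosen for printing after its values were seen. Each run is the 250 bases before a RefSeq start on GRCm38.p6, written 5′ to 3′ on the gene's strand: chr13:119690101-119690350 on the plus strand for Hmgcs1, chr5:28071162-28071411 on the plus strand for Insig1 and chr11:60220628-60220877 on the minus strand for Srebf1. Capitals mark matches, on either strand, to the sterol regulatory element TCACNCCAC, the NF-Y motif CCAAT, the Sp1 motif GGGCGG and the E-box CACGTG, none of which overlap in these runs.
Hmgcs1: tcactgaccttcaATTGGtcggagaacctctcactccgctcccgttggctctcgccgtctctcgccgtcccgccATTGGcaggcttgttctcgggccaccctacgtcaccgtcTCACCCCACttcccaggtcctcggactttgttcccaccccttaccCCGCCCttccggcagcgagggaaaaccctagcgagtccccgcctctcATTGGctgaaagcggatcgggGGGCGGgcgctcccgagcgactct
Insig1: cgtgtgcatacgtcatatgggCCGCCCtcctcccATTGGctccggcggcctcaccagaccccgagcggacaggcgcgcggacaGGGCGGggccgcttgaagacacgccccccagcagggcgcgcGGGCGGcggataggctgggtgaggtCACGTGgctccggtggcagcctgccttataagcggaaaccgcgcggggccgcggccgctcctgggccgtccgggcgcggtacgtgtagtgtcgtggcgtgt
Srebf1: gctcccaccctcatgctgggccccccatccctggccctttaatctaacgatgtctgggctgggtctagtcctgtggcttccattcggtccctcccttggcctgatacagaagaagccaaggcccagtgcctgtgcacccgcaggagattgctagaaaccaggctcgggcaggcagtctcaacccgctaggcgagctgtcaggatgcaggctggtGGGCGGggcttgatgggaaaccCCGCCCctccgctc
Among the 23 members with a promoter window, the sterol regulatory element matched in Hmgcs1 alone, read as TCACCCCAC at chr13:119690214-119690222, which is 137 to 129 bases before the start. The Hmgcs1 run also holds 3 NF-Y and 2 Sp1 matches, the Insig1 run 1 NF-Y, 3 Sp1 and 1 E-box match, and the Srebf1 run 2 Sp1 matches.

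RefSeq windows of 300 bases, from 250 before to 50 after a start, were found for 23 of the 28 genes, in 31 windows. Fdps, Fdft1, Sqle, Stard4 and Npc1 were not searched. The NF-Y motif occurred in windows of 21 of the 23 genes (91.3%), against 41.1% of all 27025 genes with a window, and the Sp1 motif in 22 (95.7%), against 38.2%. Acat2 and Scap held no NF-Y match, and Pmvk no Sp1 match. The E-box occurred in Dhcr7, Hsd17b7, Insig1, Sc5d and Scap (21.7%, against 8.09%), and the sterol regulatory element in Hmgcs1 alone (4.35%, against 1.44%). Per window the shares were 71.0%, 83.9%, 19.4% and 3.23% among the members' windows, and 37.4%, 35.7%, 7.15% and 1.24% among all 32851. These letter matches are a description of the windows and do not show binding. The comparison holds all genes with a window, whether or not expressed here, while the members were all expressed. A gene counts if any of its windows matched, also at a little-used start. For the sterol regulatory element only TCACNCCAC was searched.

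Total estimated counts were 10125184 to 20057962 per library. Of the counts matched to genes, the 28 genes together held 0.1009 to 0.103% in controls and 0.0961 to 0.0996% with Areg. Summed CPM of 12 stellate markers was 9115 to 9596 in controls and 9268 to 9543 with Areg, with Dcn the most abundant at a mean of 5259 CPM and Gfap at 0.202 and 0.278 CPM. Markers of other liver cells were present too: 10 endothelial markers summed to 6654 to 7226 and 6652 to 6681 CPM, 12 hepatocyte markers to 1961 to 3021 and 2161 to 2723, and 10 macrophage markers to 553 to 610.1 and 547 to 596. Of these lists, 1 stellate and 3 hepatocyte markers passed the test as higher, 3 stellate and 2 endothelial markers as lower and 0 macrophage markers in either direction, and no defining marker was at 0 in all libraries. Among markers tested, 36.4% of stellate, 25% of hepatocyte, 20% of endothelial and 0% of macrophage markers passed, against 16.7% of all genes tested. Their part in the results was not tested. Controls 3 and 4 stood apart on the first principal component of all genes, at 46.6 and 28.6 against -16.5 to 0.46 for the other 8 libraries, and values without them are also given for the members that passed and for the 5 SREBP control genes.

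In control cells the 8 genes with the highest length-scaled levels were 4 SREBP control genes and 4 of uptake control, transport and esterification, and none was a biosynthesis enzyme. Npc2, which hands cholesterol to Npc1 inside the lysosome, stood at 76.6 ± 4.27 TPM (SD, n = 5), Mylip, the ubiquitin ligase that degrades lipoprotein receptors, at 71.8 ± 1.44, Srebf1 at 58.1 ± 7.44 and Npc1 at 54.3 ± 5.16. Insig2 followed at 53.9 ± 12.2 TPM, Srebf2 at 49.0 ± 9.15, the esterifying enzyme Soat1 at 41.6 ± 5.08 and Scap at 37.9 ± 9.30. Every biosynthesis enzyme had a lower mean than these 8: Hmgcs1 led them at 26.5 ± 4.27 TPM, then Msmo1 at 22.0 ± 1.92, Ebp at 18.2 ± 5.27, Sc5d at 15.3 ± 0.988 and Fdps at 13.3 ± 2.14, and the other 13 lay between 8.90 ± 0.864 (Fdft1) and 2.40 ± 0.906 TPM (Dhcr7). Insig1, at 23.9 ± 2.67 TPM, lay between Hmgcs1 and Msmo1, and Stard4, a cytosolic sterol carrier, at 3.78 ± 0.721 TPM among the low enzymes. Neighbours in this order mostly did not differ beyond their spread: 25 of the 27 neighbouring pairs had overlapping control libraries, and the exceptions were Mylip over Srebf1 and Fdps over Fdft1.

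**Figure D1:**
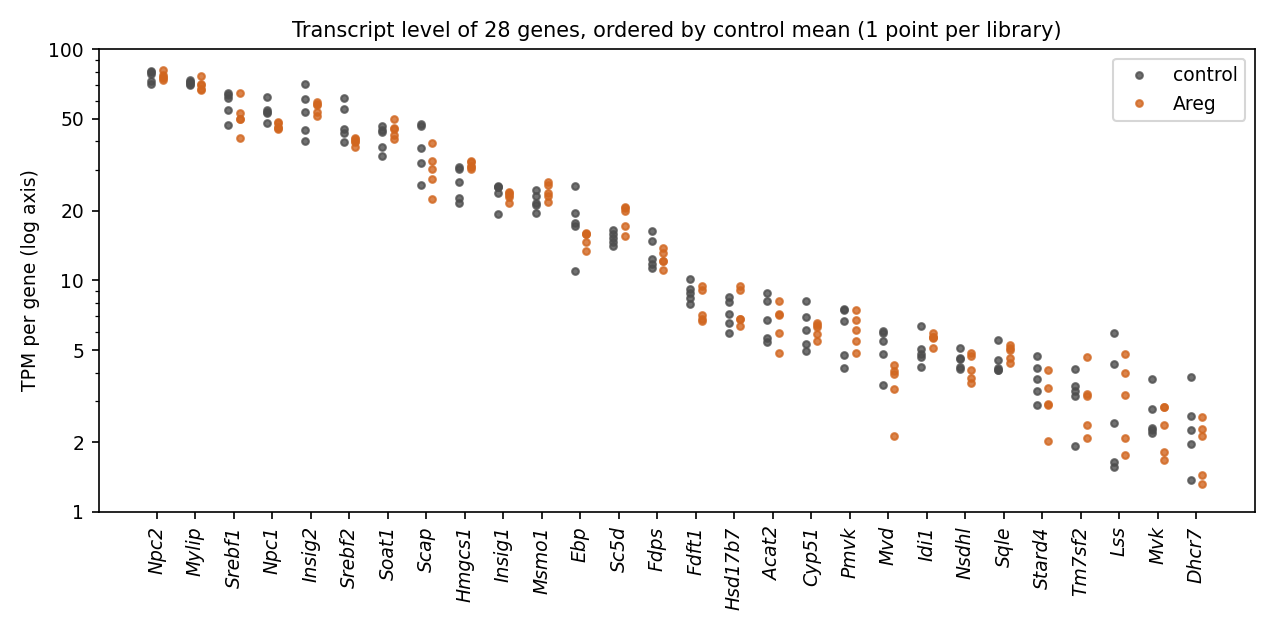
TPM per gene on a log axis, with 1 point per library (grey, 5 control; orange, 5 Areg), and the 28 genes ordered by their control mean. Levels run from 76.6 TPM for Npc2 to 2.40 TPM for Dhcr7 in controls, and neighbouring genes overlap.

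With Areg, most of the 28 genes did not pass the test, and the 3 that did moved by small amounts. Hmgcs1 rose 1.22-fold, and Srebf1 and Npc1 fell to 0.840 and 0.879 of control (edgeR's quasi-likelihood test, Benjamini-Hochberg adjusted over the 13362 genes tested, threshold 0.05). The 25 others did not pass. That is 3 of 28, or 10.7%, against 16.7% of all genes tested; 1 of 28 rose, against 8.34%, and 2 fell, against 8.32%. In bulk RNA, fewer cells of a type and less RNA per cell cannot be told apart. The median log2 fold change of the 28 genes was -0.03, beside -0.01 over all genes tested, with 11 above 0 and 17 below. At an unadjusted edgeR p under 0.05 there were 9 genes (32.1%, against 31.4% of all genes), and the libraries of the groups did not overlap for 2, Hmgcs1 and Npc1 (against 14.7% of all genes). The 95% interval of the fold change lay within 1.5-fold in either direction for 26 of the 28 genes and not for Mvd and Dhcr7. It lay within the smallest fold change simulated (given under the processing of the data) for only 10 of the 28. In simulated counts the edgeR test recovered 42.2% of changes of that smallest size. Fewer genes were changed there than were called here, so recovery in these data may differ. The 25 genes that did not pass are therefore not shown to be unchanged.

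**Figure D2:**
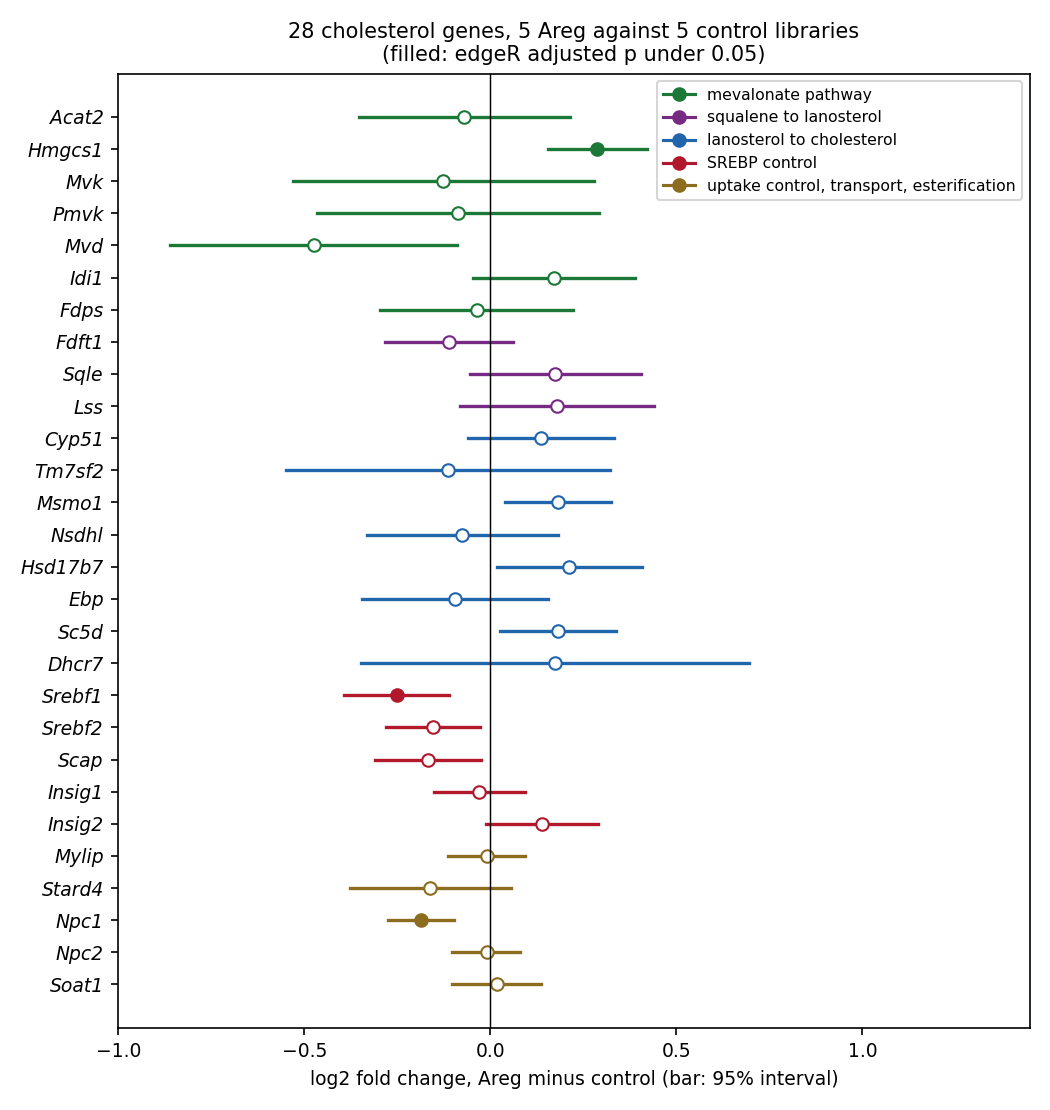
Log2 fold change (Areg minus control) of each of the 28 genes with its 95% interval, coloured by role; filled points passed edgeR's adjusted threshold. The filled points are Hmgcs1 at 0.29, Srebf1 at -0.25 and Npc1 at -0.19.

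Of the 7 genes that lead from acetyl-CoA to farnesyl diphosphate, 1 rose, 0 fell and 6 did not pass, with a median log2 fold change of -0.07. Hmgcs1 makes HMG-CoA, the precursor of mevalonate, and lies at chr13:119690379-119708260 (GRCm38). It was measured at 50.9, 53.8, 42.5, 44.1 and 49.4 CPM in controls 1 to 5 and at 60.8, 58.4, 60.2, 58.9 and 56.2 CPM in Areg libraries 1 to 5. All 5 Areg libraries were above all 5 controls, and controls 3 and 4 were the lowest. The mean went from 48.1 ± 4.74 to 58.9 ± 1.78 CPM, 1.22-fold, with a log2 fold change of 0.29 (SE 0.06, 95% interval 0.15 to 0.42, edgeR adjusted p = 0.00597). Without controls 3 and 4 it was 0.20 (edgeR adjusted p = 0.00869). The call was not kept with a transcript length offset (0.28, edgeR adjusted p = 0.0502) or on log2(TPM + 1) (0.26, limma adjusted p = 0.128). Its exons share 557 bases with the antisense gene Gm48342, and the strand setting of the counting is not given.

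The 6 other enzymes of this stretch did not pass. Mvd, which makes isopentenyl diphosphate, had the largest fold change of the 28, measured at 4.96, 5.68, 6.13, 4.83 and 3.45 CPM in controls and at 4.30, 3.94, 3.98, 2.14 and 3.40 CPM with Areg. All Areg libraries lay below the control median, but control 5 lay among them. Its log2 fold change was -0.47 (SE 0.18, 95% interval -0.86 to -0.09, edgeR adjusted p = 0.0850), and it passed when control 5 was left out (-0.58, edgeR adjusted p = 0.0323). That was the only 1 of 25 alternatives in which Mvd passed, and the smallest change among them was -0.29. The kinases Mvk and Pmvk had 2.24 ± 0.348 and 3.71 ± 0.931 CPM in controls, with log2 fold changes of -0.13 and -0.09. The isomerase Idi1 stood at 8.34 ± 0.788 and 9.42 ± 0.995 CPM (0.17), the prenyl transferase Fdps at 8.60 ± 1.74 and 8.29 ± 0.531 (-0.04), and the thiolase Acat2 at 7.99 ± 1.41 and 7.66 ± 1.23 (-0.07). The edgeR adjusted p-values of these 5 were 0.270 to 0.876.

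The 3 genes from farnesyl diphosphate to lanosterol did not pass, with a median log2 fold change of 0.18. Fdft1, which makes squalene, stood at 12.9 ± 0.671 CPM in controls and 11.9 ± 0.896 with Areg (-0.11). Sqle, which oxidises squalene, stood at 7.28 ± 1.07 and 8.16 ± 0.561 CPM (0.18), and Lss, which closes the rings of lanosterol, at 5.02 ± 0.472 and 5.68 ± 0.705 (0.18). Their edgeR adjusted p-values were 0.286 to 0.374.

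Of the 8 genes from lanosterol to cholesterol, 0 passed, with a median log2 fold change of 0.16 and 5 values above 0. The C4 demethylation enzyme Msmo1 was measured at 19.5, 20.2, 19.1, 21.8 and 19.7 CPM in controls and at 22.7, 23.5, 23.7, 23.1 and 20.6 CPM with Areg. All Areg libraries exceeded the control median, and Areg 5 lay below control 4. Its log2 fold change was 0.18 (95% interval 0.04 to 0.32, edgeR adjusted p = 0.0734), and it passed without control 4 (0.21, edgeR adjusted p = 0.0483). Msmo1 passed in that 1 of 25 alternatives alone, and its smallest value among them was 0.07. The keto reductase Hsd17b7 went from 12.2 ± 0.959 to 14.1 ± 1.56 CPM (0.21, edgeR adjusted p = 0.126), with the groups overlapping. Sc5d, a desaturase, went from 20.2 ± 1.48 to 22.8 ± 1.65 CPM (0.18, edgeR adjusted p = 0.0994), and passed with a transcript length offset (0.33, edgeR adjusted p = 0.0417). No other of the 25 alternatives called Sc5d, and its smallest value among them was 0.09. The demethylase Cyp51 stood at 12.8 ± 1.05 and 14.03 ± 1.53 CPM, the isomerase Ebp at 13.9 ± 2.68 and 12.9 ± 0.783, and the C4 decarboxylase Nsdhl at 5.57 ± 0.482 and 5.27 ± 0.682. The reductases Tm7sf2 (2.67 ± 0.729 and 2.42 ± 0.464 CPM) and Dhcr7 (2.07 ± 0.643 and 2.32 ± 0.668) were low, and the 95% interval for Dhcr7 ran from -0.35 to 0.70. Over all 18 biosynthesis genes, 1 rose, 0 fell and 17 did not pass, with 9 fold changes above 0 and 9 below. Their summed level was 193.4 to 207 CPM in controls and 208 to 222 CPM with Areg, without overlap, whereas the same sum in TPM was 162 ± 5.01 and 166 ± 8.15. The sum over all 28 genes went the other way, at 999.5 to 1034.9 CPM in controls and 970.6 to 999.4 CPM with Areg, also without overlap. In TPM that sum was 632 ± 16.0 and 608 ± 15.2. The sums were not tested, and Hmgcs1 is the largest term of the biosynthesis sum in CPM.

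Of the 5 SREBP control genes, 0 rose, 1 fell and 4 did not pass, with a median log2 fold change of -0.16. Srebf1, which encodes SREBP-1 at chr11:60199089-60222581 (GRCm38), was measured at 97.5, 89.8, 113, 105 and 86.8 CPM in controls and at 83.7, 77.7, 88.0, 83.3 and 80.1 CPM with Areg. Every Areg library lay below the control median, but Areg 3 was above control 5, so the groups overlapped, and controls 3 and 4 were the highest. The mean went from 98.4 ± 10.8 to 82.5 ± 3.91 CPM, 0.840 of control, with a log2 fold change of -0.25 (SE 0.07, 95% interval -0.39 to -0.11, edgeR adjusted p = 0.0165). Without controls 3 and 4 it was -0.15 (edgeR adjusted p = 0.0488). The call was not kept when Areg 2 was left out (-0.23, edgeR adjusted p = 0.0567), with a transcript length offset (-0.14, edgeR adjusted p = 0.472) or once each library's trend over transcript length and GC content was removed (-0.03, edgeR adjusted p = 0.677). Its exons share at most 109 bases with another annotated gene, Rai1 or Mir6922.

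Srebf2, which encodes SREBP-2, was measured at 98.2, 94.2, 114, 104 and 95.1 CPM in controls and at 87.4, 89.2, 100.2, 88.0 and 88.5 CPM with Areg. The groups overlapped through Areg 3, which stood well above the other 4 Areg libraries. The log2 fold change was -0.16 (SE 0.06, 95% interval -0.28 to -0.03, edgeR adjusted p = 0.0848), and without Areg 3 it passed at -0.19 (edgeR adjusted p = 0.0471). Scap, the sterol-sensing escort, was measured at 54.1, 53.1, 63.4, 66.8 and 55.8 CPM in controls and at 51.3, 51.6, 48.7, 54.1 and 54.5 CPM with Areg. Controls 3 and 4 were again the highest, the other 3 controls overlapped the Areg libraries, and the log2 fold change was -0.17 (SE 0.07, edgeR adjusted p = 0.0958). Without controls 3 and 4 the values were -0.08 for Srebf2 and -0.06 for Scap, and with the length and GC trend removed both changed sign, to 0.04.

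Insig1 and Insig2 encode the retention proteins, and neither passed. Insig1 was measured at 33.7, 34.9, 29.8, 34.3 and 34.4 CPM in controls and at 34.5, 32.2, 32.7, 31.5 and 33.2 CPM with Areg. The groups overlapped and control 3 was the lowest library, and the log2 fold change was -0.03 (SE 0.06, 95% interval -0.15 to 0.09, edgeR adjusted p = 0.768) and -0.06 without controls 3 and 4. Insig2 was measured at 47.5, 47.3, 39.1, 37.7 and 47.1 CPM in controls and at 49.3, 52.5, 46.6, 45.9 and 47.4 CPM with Areg. Its controls 3 and 4 were low and its other libraries overlapped, with a log2 fold change of 0.14 (SE 0.07, 95% interval -0.01 to 0.29, edgeR adjusted p = 0.193). Without those controls it was 0.04 (edgeR adjusted p = 0.721), and it changed sign to -0.03 when the length and GC trend was removed as well. The 5 SREBP control genes summed to 335 ± 17.9 CPM in controls and 306 ± 5.65 with Areg, and to 323 ± 6.73 CPM in the 3 controls other than 3 and 4. By library the sums were 319 to 359 CPM in controls and 303 to 316 CPM with Areg, without overlap. These sums were not tested.

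**Figure D3:**
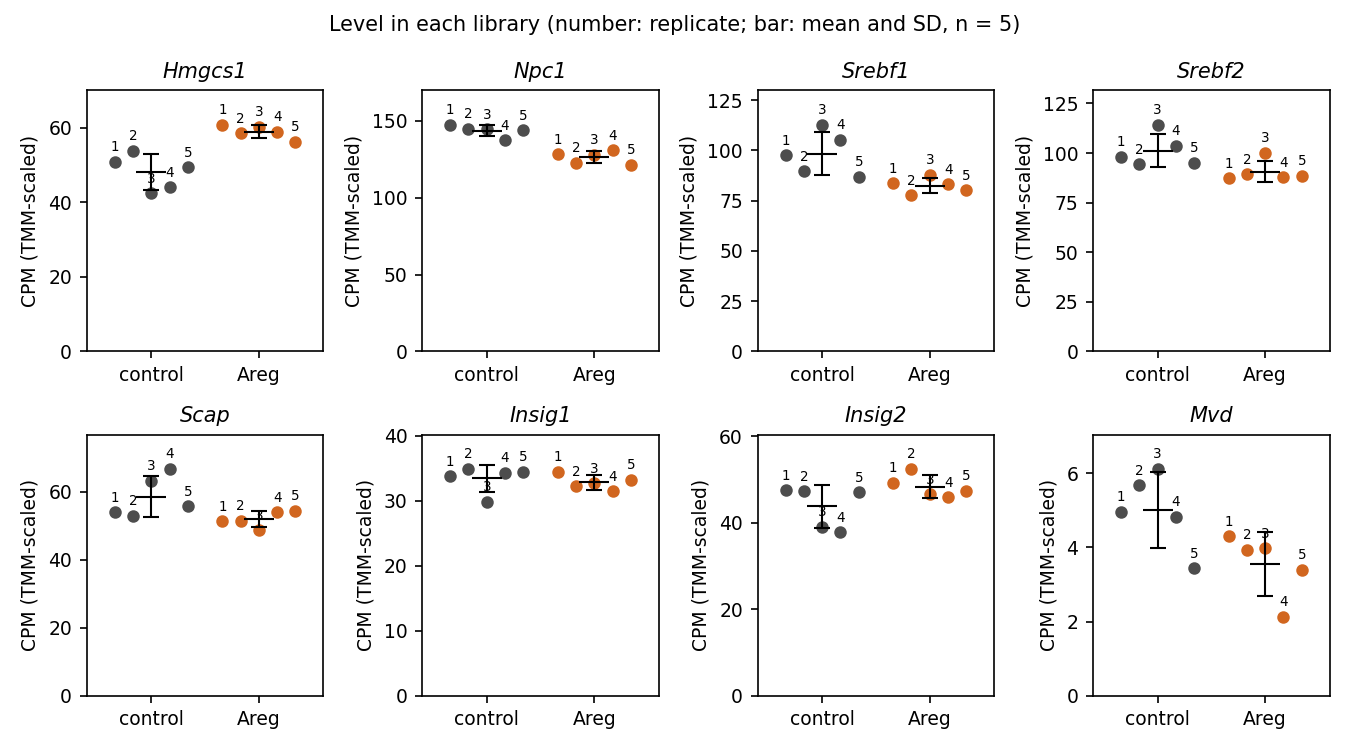
CPM of 8 genes in each of the 10 libraries, numbered by replicate, with the mean and SD (n = 5 per group), on axes that start at 0. For Srebf1, Srebf2 and Scap controls 3 and 4 are the highest controls, and for Hmgcs1 and Insig2 they are the lowest.

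Of the 5 genes of uptake control, transport and esterification, 0 rose, 1 fell and 4 did not pass, with a median log2 fold change of -0.01. Npc1, the membrane protein that exports cholesterol from the lysosome, is on chromosome 18. It was measured at 147, 145, 144, 137 and 144 CPM in controls and at 128, 123, 128, 131 and 121 CPM with Areg. All Areg libraries were below all controls. The mean went from 144 ± 3.71 to 126 ± 3.89 CPM, 0.879 of control, with a log2 fold change of -0.19 (SE 0.04, 95% interval -0.28 to -0.10, edgeR adjusted p = 0.00693). It was -0.20 without controls 3 and 4 (edgeR adjusted p = 0.00105) and -0.17 with the length and GC trend removed (edgeR adjusted p = 0.00178). On log2(TPM + 1) it was -0.21 and did not pass (limma adjusted p = 0.0859). The antisense genes Gm15956 and Rmc1 overlap its exons, sharing at most 511 bases. Npc2, its lysosomal partner, stood at 136 ± 5.36 CPM in controls and 135 ± 3.2 with Areg, a log2 fold change of -0.01. Mylip stood at 126 ± 3.74 and 125 ± 7.65 CPM (-0.01), and Soat1 at 67.0 ± 3.85 and 67.9 ± 3.68 (0.02). Stard4 stood at 7.52 ± 0.505 and 6.73 ± 0.633 CPM (-0.16, edgeR adjusted p = 0.298). Summed, the 5 genes stood at 475 to 490 CPM in controls and 449 to 473 CPM with Areg, without overlap. In TPM the sum was 248 ± 14.3 and 241 ± 6.71, and it was not tested.

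Among the 28 genes, log2 fold changes were lower where the GC content of the transcripts was higher. Scap, Srebf1 and Srebf2 had 58.8, 59.2 and 57.5% GC, against a median of 50.1% over the genes tested and 49.9% over the members, and Mvd had 59.3%. Hmgcs1 had 43.7% and Npc1 49.4%. Spearman's rho between GC content and log2 fold change was -0.62 across the 28 genes and -0.49 across 13354 genes tested. Without controls 3 and 4 these were -0.35 and -0.24, and with the per-library trend removed -0.12 and 0.01. Genes share libraries and are not independent replicates, so these are descriptions.

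**Figure D4:**
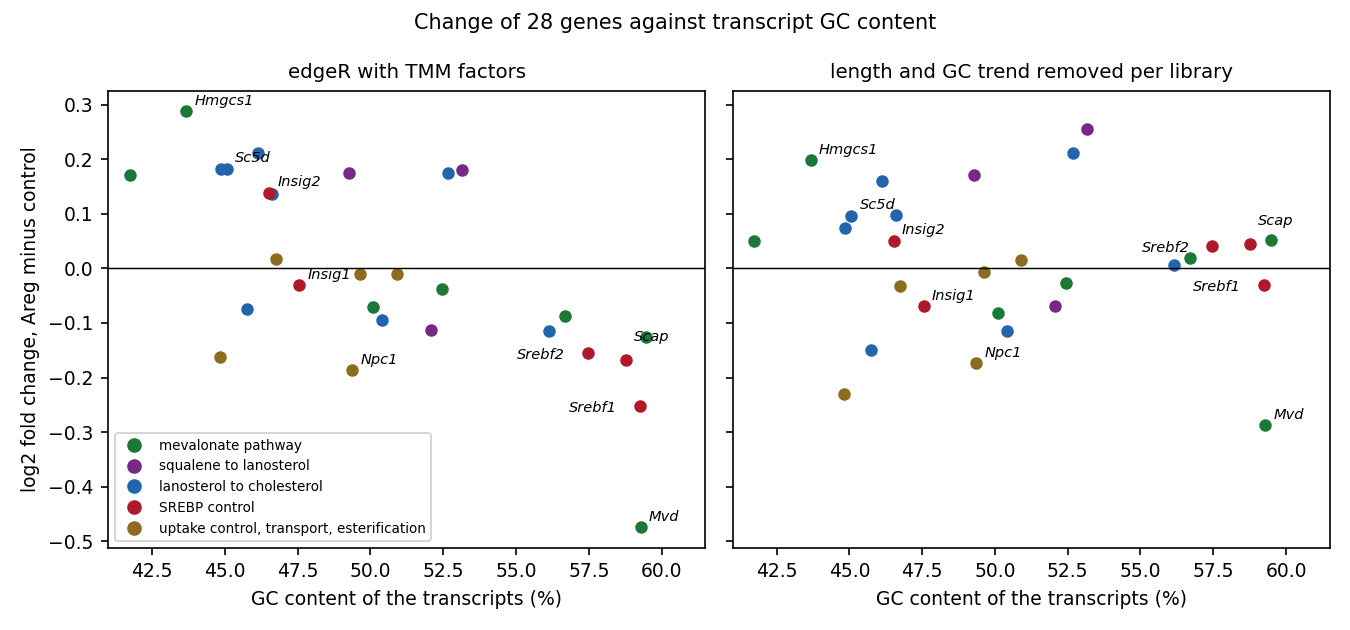
Log2 fold change (Areg minus control) of the 28 genes against the GC content of their transcripts in percent, coloured by role, from the edgeR fit with TMM factors (left) and with each library's length and GC trend removed (right). Spearman's rho is -0.62 on the left and -0.12 on the right; Hmgcs1 stays at 0.20 and Npc1 at -0.17 on the right, while Srebf1 moves to -0.03.

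Within the genes, the share of each gene's TPM held by a transcript was compared by a two-sided exact permutation test over all arrangements of the 10 libraries, for 78 transcripts of 25 of the 28 genes. Of these, 0 passed after Benjamini-Hochberg adjustment over 31630 transcripts (0.0% called in all), with a lowest adjusted p of 0.512 by exact permutation. At an unadjusted exact p under 0.05 there were 6 (7.69%, against 7.8% of all transcripts). Soat1-207 went from 13.0 ± 0.564% of Soat1 TPM to 10.5 ± 0.969%, without overlap between the groups, with an exact permutation p of 0.00794, which is the smallest that 5 against 5 libraries can give. A transcript at that p passes after adjustment over 31630 transcripts only if a large number of others reach it too. The 0 calls therefore do not show that shares stayed the same. Srebf1 has transcripts from several starts. Srebf1-201, which begins at the start whose promoter is printed above, had 31.2 ± 3.42 TPM in controls and 27.0 ± 2.27 with Areg, a share of 54.0 ± 6.65% and 53.4 ± 9.5%. Srebf1-204, from the start at chr11:60222581, had 2.21 ± 1.83 and 2.99 ± 1.32 TPM. Srebf1-207 and Srebf1-208, from the start at chr11:60210471, summed to 12.3 ± 6.93 TPM in controls and 7.46 ± 5.28 with Areg. The 8 other Srebf1 transcripts summed to 12.4 ± 4.22 and 14.3 ± 3.31 TPM. These sums were not tested. Which of these starts gives SREBP-1a and which SREBP-1c was not assigned.

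Other genes of sterol and lipid handling were read from the same fit in 5 lists. Of all genes tested, 16.7% were called, 8.34% as higher and 8.32% as lower. Among 21 genes of SREBP proteolysis, trafficking and turnover, 0 rose, 1 fell and 20 did not pass (4.76% called, median log2 fold change 0.03). The Golgi proteases that release SREBP, Mbtps1 and Mbtps2, had log2 fold changes of -0.04 and 0.17 and did not pass (edgeR adjusted p = 0.561 and 0.104). The gene that fell was Sec24d, a coat subunit of vesicles that leave the endoplasmic reticulum, from 150.2 ± 4.97 to 135 ± 5.10 CPM (edgeR adjusted p = 0.0298). It did not pass without control 4 or without Areg 1, 2 or 4 (edgeR adjusted p = 0.0759 to 0.0882), nor with the length offset or on the TPM scales (edgeR and limma adjusted p = 0.0725 to 0.0740).

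Among the 19 tested of 20 fatty acid synthesis genes known as SREBP-1 targets, 2 rose, 3 fell and 14 did not pass (26.3% called, against 16.7% of all genes tested, median 0.02). The called members thus went in both directions. Mid1ip1, which promotes polymerisation of acetyl-CoA carboxylase, rose from 77.6 ± 4.31 to 95.4 ± 5.53 CPM (edgeR adjusted p = 0.00169). The acyl-CoA synthetase Acsl3 rose from 21.8 ± 2.52 to 26.7 ± 2.18 CPM (edgeR adjusted p = 0.0269) and was named after its values were seen. The mitochondrial citrate carrier Slc25a1 fell from 50.2 ± 4.61 to 41.3 ± 2.06 CPM (edgeR adjusted p = 0.00808). Acss2, which makes cytosolic acetyl-CoA from acetate, fell from 13.1 ± 1.43 to 9.86 ± 1.09 CPM (edgeR adjusted p = 0.0124), and the desaturase Fads1 from 56.8 ± 4.25 to 49.0 ± 2.46 (edgeR adjusted p = 0.0220). Fads1 did not pass without Areg 1 or 2 (edgeR adjusted p = 0.0611 and 0.0618), nor Acsl3 without control 4 or 5 or Areg 2 or 4 (0.0515 to 0.0815). With the length and GC trend removed Acss2 and Mid1ip1 kept their calls, at -0.43 and 0.44 (edgeR adjusted p = 0.00383 and 2.60e-06), and Slc25a1, Fads1 and Acsl3 did not (0.0873, 0.0615 and 0.342). With the length offset and on both TPM scales Acss2 kept its call, while Mid1ip1, Fads1 and Acsl3 did not pass (edgeR and limma adjusted p = 0.0529 to 0.0644, 0.407 to 0.495 and 0.167 to 0.214), and Slc25a1 did not pass with the length offset (edgeR adjusted p = 0.0707). Acsl3 was at 0.23 without controls 3 and 4 together (edgeR adjusted p = 0.0528).

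Among the 12 tested of 13 LXR receptors, targets and efflux genes, 0 rose, 4 fell and 8 did not pass (33.3% called, against 16.7% of all genes tested, median -0.07). The retinoid X receptor Rxra, the obligate partner of LXR, fell from 131 ± 4.66 to 103 ± 4.85 CPM (log2 -0.35, edgeR adjusted p = 0.000169). Rxrb, Pltp, a phospholipid transfer protein, and Nr1d1, a clock repressor, had log2 fold changes of -0.23, -0.27 and -0.31 (edgeR adjusted p = 0.0483, 0.0297 and 0.0147). With the length and GC trend removed, Rxra kept its call at -0.15 (edgeR adjusted p = 0.0112), while Rxrb stood at -0.004, Pltp at -0.10 and Nr1d1 at -0.13 and did not pass (edgeR adjusted p = 0.971, 0.190 and 0.119). Pltp and Rxrb also did not pass without control 4 or without Areg 1, 2 or 5, and Rxrb without control 3 or Areg 4 (edgeR adjusted p = 0.0579 to 0.0819 for Pltp and 0.0802 to 0.133 for Rxrb). Pltp was at -0.13, Rxrb at -0.10 and Nr1d1 at -0.16 without controls 3 and 4 together (edgeR adjusted p = 0.0708, 0.287 and 0.0141), and Nr1d1 at -0.06 with the trend removed as well (edgeR adjusted p = 0.476). With the length offset and on both TPM scales Rxra, Pltp and Rxrb did not pass (edgeR and limma adjusted p = 0.0759 to 0.0834, 0.0587 to 0.0698 and 0.0591 to 0.0687).

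Among 26 genes of endolysosomal and inter-organelle sterol transport, which Npc1 itself serves, 0 rose, 4 fell and 22 did not pass (15.4% called, against 16.7% of all genes tested, median -0.05). The endocytic receptor Lrp1 fell from 893 ± 73.9 to 677 ± 38.4 CPM (log2 -0.40, edgeR adjusted p = 0.000394), and stood at -0.12 with the length and GC trend removed (edgeR adjusted p = 0.0819). The lysosomal lipase Lipa, which frees cholesterol from its esters upstream of Npc1, fell from 193 ± 7.54 to 171 ± 3.13 CPM (log2 -0.17, edgeR adjusted p = 0.0108), and was -0.24 with that trend removed (edgeR adjusted p = 0.000476). The lipoprotein receptor Scarb1 fell from 100.9 ± 8.69 to 87.2 ± 3.58 CPM (edgeR adjusted p = 0.0219), and stood at -0.06 with the trend removed, no longer passing (edgeR adjusted p = 0.303). Nceh1, a cholesteryl ester hydrolase, fell from 30.0 ± 1.29 to 25.6 ± 1.96 CPM (edgeR adjusted p = 0.0254). Scarb1 did not pass without Areg 2, 4 or 5 (edgeR adjusted p = 0.0515 to 0.0705), nor Nceh1 without control 1 or Areg 1, 2 or 4 (0.0544 to 0.0756) or with the length offset or on the TPM scales (edgeR and limma adjusted p = 0.0915 to 0.0946). Scarb1 was at -0.13 without controls 3 and 4 together (edgeR adjusted p = 0.0552).

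Among 15 genes of the non-sterol isoprenoid branch, which draws on farnesyl diphosphate, 3 rose, 0 fell and 12 did not pass (20% called, against 16.7% of all genes tested, median 0.09). Rabggtb, a subunit of the Rab geranylgeranyl transferase, rose from 72.7 ± 6.78 to 91.2 ± 3.97 CPM (edgeR adjusted p = 0.00222). Pdss1, which makes the side chain of coenzyme Q, rose from 5.52 ± 0.861 to 7.73 ± 0.667 CPM (edgeR adjusted p = 0.0121), and Zmpste24, a protease of prenylated proteins, from 93.0 ± 5.75 to 107 ± 3.69 (edgeR adjusted p = 0.0113). With the length and GC trend removed, Zmpste24 did not pass (0.09, edgeR adjusted p = 0.129). Zmpste24 and Pdss1 did not pass with the length offset or on the TPM scales (edgeR and limma adjusted p = 0.0636 to 0.188 and 0.0564 to 0.0747), nor did Pdss1 with the trend removed without controls 3 and 4 (edgeR adjusted p = 0.0571). Rabggtb kept its call under all 25 alternatives. No test compared these lists with the 28 genes or with each other.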

How the data were processed

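Poly-A RNA of 10 libraries was quantified by the authors. The deposited files give, for each transcript, an estimated count, which the authors' run apportioned among transcripts and which need not be whole, and a TPM that it scaled for length, per the file headers. The tools listed in the submitters' processing notes are bcl2fastq 2.19, kallisto 0.44.0 and DESeq2, and the build listed is GRCm38.p6. The strand setting is not given in the sources used here. Estimation divides reads among similar transcripts, so values of overlapping and near-identical genes are uncertain: 10 of the 28 genes share exon bases with another annotated gene.

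Transcripts were joined to genes by GENCODE M21 (116816 of 118489 matched; the rest held 0.736 to 0.778% of counts). Counts were summed per gene and rounded. The groups, taken from the labels, were compared with edgeR 4.0.16 (R 4.3.3), robust quasi-likelihood, TMM factors, filterByExpr (minimum count 10, total 15) and no covariates, with Benjamini-Hochberg adjustment over 13362 genes. The biological coefficient of variation was 9.37%. No pair of replicates agreed within counting noise (chi-square over its degrees of freedom, 3.74 to 50.5). Alternatives used limma 3.58.1, DESeq2 1.42.0, other filters, factors and scales, a replicate block, a length and GC trend offset and left-out libraries. Transcript shares were tested for transcripts holding 5 to 95% of a gene of at least 2 TPM (Python 3.11.15, scipy 1.17.1).

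The members, the related lists and the rule for named genes were chosen with earlier results of these data known. Every member is named; values in every library and full statistics are given for called members and for Srebf1, Srebf2, Scap, Insig1 and Insig2, and up to 4 called genes with the smallest p from each related list. Mvd and Msmo1 were given in full, and Mbtps1, Mbtps2 and Acsl3 named, after their values were seen. Marker lists for stellate cells, hepatocytes, macrophages, endothelial cells, cholangiocytes (1.66 to 5.55 and 1.50 to 2.51 CPM summed), lymphocytes (23.0 to 33.4 and 29.0 to 33.1) and smooth muscle cells (154 to 186 and 179 to 200.1) were summed per library, for controls and Areg in that order. Of the last 3 lists, 1 of 3 tested smooth muscle markers passed as higher (33.3%, against 16.7% of all genes tested) and 0 of 2 and 0 of 1 in the others. The tests were checked on simulated data. In simulated counts the edgeR test recovered 42.2% of 1.25-fold, 76.4% of 1.5-fold and 87.2% of 2-fold changes. Each run changed 200 of 13362 genes, against 2226 called in the data. The simulated counts held no GC trend and no shift of controls 3 and 4, so recovery in the data may differ. The simulated transcript shares held far fewer transcripts than were tested here, so they do not show what the share test could call. Promoter windows are from RefSeq on GRCm38.p6.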

Additional observations from a re-analysis of the deposited data

Results flagged for a closer look

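In 4 of 56 groups of 5 libraries (each of the 28 genes in each group), the highest or lowest library lay far from the others for the group's range. Chance gives about 1 in 20 such groups. Sqle in control 3 was 9.14 CPM, with the other controls at 6.48 to 7.16. Hsd17b7 in control 2 was 13.8 CPM, with the others at 11.3 to 12.05. Insig1 in control 3 was 29.8 CPM, with the others at 33.7 to 34.9. Srebf2 in Areg 3 was 100.2 CPM, with the other Areg libraries at 87.4 to 89.2, and Srebf2 passed without that library.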

How the results depend on the processing

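Of 700 member results (28 genes under 25 alternatives), 629 kept direction and side of the threshold, 12 lost the call, 5 gained it and 54 changed sign. All sign changes were in genes that did not pass, and 15 genes had none. Where no cause follows from the alternative itself, the cause was not tested. Hmgcs1 lost its call under 3 alternatives (length offset and both TPM scales), Npc1 under 2 (both TPM scales) and Srebf1 under 7 (these 3, the 3 fits with the length and GC trend removed and without Areg replicate 2). All genes called numbered 2226, against 1149 with the length offset, where the rising member was Sc5d in place of Hmgcs1, and 856 and 868 on log2(TPM + 1) and log2(TPM + 0.1), where 0 members rose and 0 fell. Leaving out each library in turn gave 1364 to 2314 genes, 1364 without Areg replicate 2, with 1 to 2 members higher and 1 to 3 lower. The fall of 2 members became 1 with the length offset, with the trend removed, with the replicate block and the trend removed, and with the trend removed without controls 3 and 4. The share of called genes that were higher was 50.04% in the fit reported, 63.6% with the trend removed, 62.9% with the replicate block as well, 37.6% and 37.4% on the TPM scales. The combination of trend removal without controls 3 and 4 was chosen after seeing the data.

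The replicate block called 2357 genes, 1 member higher and 3 lower (Srebf2 added, -0.16, edgeR adjusted p = 0.0364). Deviations of same-numbered libraries correlated at -0.05 to 0.14, and 2 of 5 controls correlated best with their own number, so the libraries were taken to share only a number.

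Log2 fold changes that reversed were as follows. With the trend removed they were Mvk 0.052, Pmvk 0.020, Tm7sf2 0.006, Srebf2 0.042, Scap 0.045, Npc2 0.016 and Soat1 -0.032, and with the replicate block and the trend removed Mvk 0.055, Pmvk 0.027, Tm7sf2 0.001, Srebf2 0.040, Scap 0.045, Npc2 0.016 and Soat1 -0.032. With the trend removed without controls 3 and 4 they were Mvk 0.040, Fdps 0.054, Tm7sf2 0.181, Srebf2 0.053, Scap 0.064, Insig2 -0.032, Mylip 0.014, Npc2 0.013, Soat1 -0.042 and Rxrb 0.011. Without controls 3 and 4 they were Fdps 0.080, Tm7sf2 0.140, Mylip 0.000 and Soat1 -0.021. With the length offset they were Pmvk 0.030, Dhcr7 -0.256 and Npc2 0.032, on log2(TPM + 1) Pmvk 0.019, Cyp51 -0.023, Dhcr7 -0.187 and Npc2 0.002, and on log2(TPM + 0.1) Pmvk 0.025, Cyp51 -0.024, Dhcr7 -0.258 and Npc2 0.002. With limma-voom Fdps was 0.003, and with no filter Mylip and Npc2 were both 0.008. Leaving out each library in turn, the ranges of genes that changed sign were -0.157 to 0.041 for Acat2, -0.193 to 0.013 for Pmvk, -0.114 to 0.064 for Fdps, -0.236 to 0.012 for Tm7sf2, -0.046 to 0.012 for Mylip, -0.028 to 0.007 for Npc2 and -0.014 to 0.041 for Soat1. Transcript shares gave 0 calls in the test reported and in every alternative run for them. The test reported could not call a transcript unless a large number of others also reached its smallest p. Depth limits 3 of the 28 genes, Mvk, Tm7sf2 and Dhcr7, whose mean counts per library were under 50.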
